A study of Mus musculus with 3 samples.

Results

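The genes described here are the interleukins and interleukin receptors, chosen as every probe set (a group of short probes for one transcript) whose single platform gene symbol begins with Il and a number. The rule found 115 of 45037 probe sets, for 73 genes: 32 ligands, 37 receptors, co-receptors and binding proteins, and 4 others, which are Il16, Il34, the amino acid oxidase gene Il4i1 and the antisense RNA Il1bos. They were measured on 3 single-colour mouse expression arrays of C57BL/6 kidney tissue, 1 mouse per array. The first group is 2 mice given acetate (C2, a short-chain fatty acid) dissolved at 200 mM in their drinking water, begun at 3 weeks of age and kept up for 6 weeks, labelled mouse 1 and mouse 2. The other group is 1 control mouse. The labels give the same treatment sentence for all 3 samples and separate them by agent and title, while sex, litter and what the control mouse drank were not given in the sources used here. Housing was conventional for both groups, and the labels name no altered gene.

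Interleukins are small secreted proteins through which immune and tissue cells signal. Most receptors are made of a binding chain and a shared signalling chain, and act through JAK kinases and STAT factors, while receptors of the IL-1 and IL-17 families act through adaptor proteins on the NF-kappaB pathway. T helper 1 cells are defined by interferon gamma and driven by IL-12 and IL-18, and T helper 17 cells make IL-17A, IL-17F and IL-22 and are driven by IL-6, IL-1 beta and IL-23. In the kidney, epithelial cells carry receptors for several of these cytokines, and secretion by a few infiltrating lymphocytes can be hard to see in RNA of the whole organ.

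Values are the deposited log2 expression values, so 1 unit stands for a 2-fold step. Means of the acetate-fed pair are given ± SD over n = 2 mice, the control as its single value, and every difference holds whatever was particular to the 1 control kidney, which both mice share. Exact repeats are frequent in the deposited values: 37 of the 115 interleukin probe sets (32.2%) have the same value on all 3 arrays, against 30% of all probe sets, and 53 (46.1%) the same value in both acetate-fed mice, against 44.9%. Each array holds between 16037 and 18515 distinct values among 45101. An SD of 0 is therefore a repeated value and not a measured spread. Kidney epithelial markers were above background on every array for 5 of 5 genes with a probe set, among them uromodulin (Umod), with 13.67 and 13.64 in acetate-fed mice 1 and 2 and 13.53 in the control mouse.

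The promoters of the 2 members that passed the test, Il16 and Il33, are shown first because they are the only interleukin genes whose differences passed it, and the arrays do not tell which start was in use. The windows are those of RefSeq on GRCm38.p6, from 250 bases before to 50 bases after each listed start, 5′ to 3′ in the direction of transcription; 57 of the 73 member genes have a window in that table. Capitals mark matches on either strand to a kappaB motif (GGNNTTTCC), a STAT motif (TTCNNNGAA) or an AP-1 motif (TGANTCA), where N is any base.
Il33, start 1, chr19:29924863-29925162 (+ strand): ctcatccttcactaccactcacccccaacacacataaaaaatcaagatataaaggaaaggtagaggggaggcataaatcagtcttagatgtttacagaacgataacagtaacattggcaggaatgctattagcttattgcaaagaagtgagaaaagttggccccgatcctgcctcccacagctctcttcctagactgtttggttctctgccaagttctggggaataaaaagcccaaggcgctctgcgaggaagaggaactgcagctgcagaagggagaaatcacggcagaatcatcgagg
Il33, start 2, chr19:29945540-29945839 (+ strand): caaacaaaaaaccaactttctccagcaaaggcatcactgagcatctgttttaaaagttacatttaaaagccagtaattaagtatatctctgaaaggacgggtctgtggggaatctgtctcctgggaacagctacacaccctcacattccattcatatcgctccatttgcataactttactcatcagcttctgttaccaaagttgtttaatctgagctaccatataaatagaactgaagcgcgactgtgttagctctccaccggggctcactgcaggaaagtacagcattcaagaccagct
Il16, start 1, chr7:83655446-83655745 (- strand): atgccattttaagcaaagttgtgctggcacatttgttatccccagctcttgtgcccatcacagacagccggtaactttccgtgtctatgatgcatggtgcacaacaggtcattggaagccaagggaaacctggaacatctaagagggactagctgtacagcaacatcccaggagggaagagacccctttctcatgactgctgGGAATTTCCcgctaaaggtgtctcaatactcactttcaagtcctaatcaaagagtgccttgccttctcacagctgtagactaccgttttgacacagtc
Il16, start 2, chr7:83732349-83732648 (- strand): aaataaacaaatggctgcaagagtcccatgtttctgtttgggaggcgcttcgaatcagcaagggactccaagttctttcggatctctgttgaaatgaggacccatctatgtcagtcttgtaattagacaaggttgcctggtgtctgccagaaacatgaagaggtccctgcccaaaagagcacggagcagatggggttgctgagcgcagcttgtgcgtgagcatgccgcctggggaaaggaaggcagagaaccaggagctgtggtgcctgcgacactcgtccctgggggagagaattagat
Il16, start 3, chr7:83735490-83735789 (- strand): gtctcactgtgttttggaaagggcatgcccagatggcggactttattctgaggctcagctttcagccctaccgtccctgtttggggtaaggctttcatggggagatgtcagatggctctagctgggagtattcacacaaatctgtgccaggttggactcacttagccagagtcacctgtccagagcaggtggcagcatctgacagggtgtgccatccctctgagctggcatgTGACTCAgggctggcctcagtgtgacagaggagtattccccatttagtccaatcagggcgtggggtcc
Start 1 of Il16 held a kappaB match, GGAATTTCC, beginning 48 bases before the listed start, and start 3 held an AP-1 match, TGACTCA, beginning 18 bases before it. Neither Il33 window held a match. Among 32851 windows of all genes, 5.82% held the kappaB, 8.30% the STAT and 7.81% the AP-1 motif. The kappaB motif was shortened by a base after a first search, so its match did not come from a motif fixed beforehand. The matches describe these windows only, and whether they exceed the shares of all windows was not tested.

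Which interleukins could be seen at all was asked first. No detection calls were used here, so background was taken as the 95th percentile of 80 olfactory and vomeronasal receptor probe sets on the same array, which was 4.83 on both acetate-fed arrays and 4.82 on the control array. A few such receptors are made in kidney, and probe sets differ in how strongly they bind, so the limit is a rough one. Above it on at least 1 array were 47 of 115 interleukin probe sets (40.9%), against 52.2% of all probe sets, and 32 of 73 genes: 9 of 32 ligands, 21 of 37 receptors and binding proteins, and Il16 and Il34. The 41 genes not above it on any array included 23 ligands, among them Il2, Il4, Il5, Il6, Il10, Il12a, Il13, Il17a, Il21, Il23a and Il25.

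Of 16 cytokine genes of the T helper 1 and 17 responses, 13 had a probe set with a single symbol, and 3 of these 13 were above background: Il1b, Il18 and Tnf (tumour necrosis factor, no interleukin by symbol). Il17a, the defining cytokine of T helper 17 cells, had values of 3.32 and 3.37 in acetate-fed mice 1 and 2 and 3.23 in the control mouse. Ifng, the defining cytokine of T helper 1 cells and also no interleukin by symbol, had 2.92 and 2.79 in acetate-fed mice and 2.92 in the control mouse. All these values lay well under the background limit, so no difference in either gene was detectable with these probe sets. Il6, which promotes T helper 17 cells and the acute-phase response, had 3.02 and 2.73 in acetate-fed mice and 2.73 in the control mouse. Il23a, which sustains T helper 17 cells, was 3.03 on all 3 arrays. Il2, a T cell growth factor, had 3.45 in both acetate-fed mice and 3.47 in the control mouse. Il21, a product of helper T cells, had 2.98 and 2.84 in acetate-fed mice and 2.98 in the control mouse on one probe set and 2.79 on all arrays on the other. Lta (lymphotoxin alpha) and Csf2 (GM-CSF), no interleukins by symbol, had 3.45 and 3.39 in acetate-fed mice against 3.39 in the control mouse, and 4.13 on all 3 arrays. All of these values lay under background. The IL-12 subunit genes had 2.92 in both acetate-fed mice and 2.83 in the control mouse for Il12a, and 4.42 in both and 4.31 for the higher of the Il12b probe sets. Il18, an inducer of interferon gamma that tubular cells make, was 5.17 on all 3 arrays. Tnf had 5.28 and 5.11 in acetate-fed mice and 5.11 in the control mouse. Il17f, Il22 and Il27 have no probe set with a single symbol and were not analysed here.

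**Figure D1:**
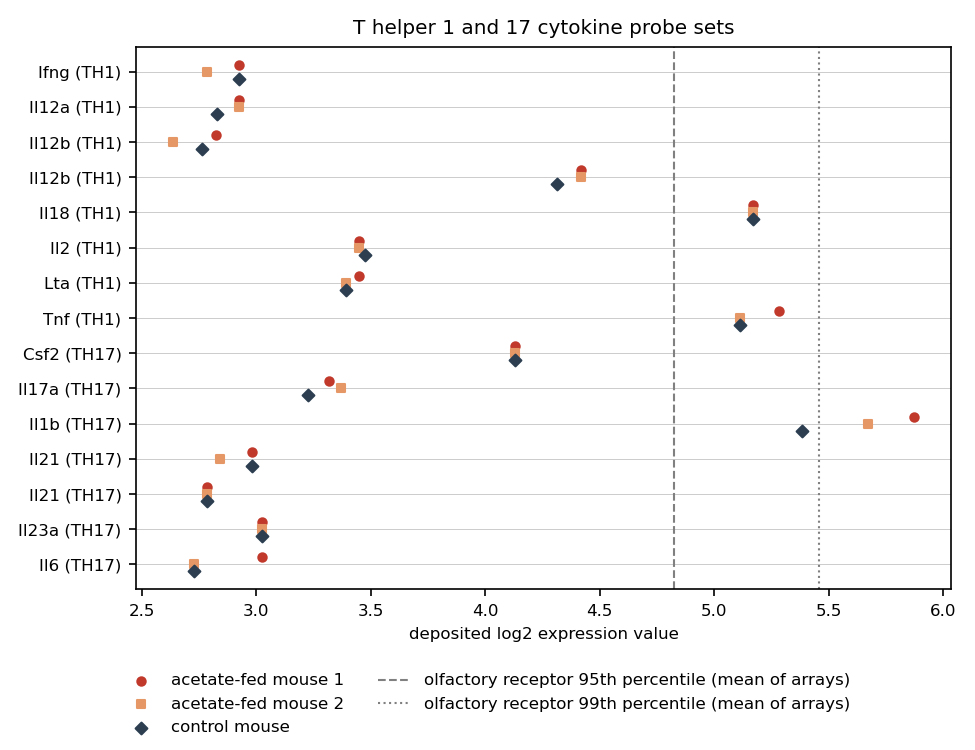
Deposited log2 values (horizontal axis) of the 15 probe sets for 13 T helper 1 (TH1) and T helper 17 (TH17) cytokine genes, with a point for each acetate-fed mouse and the control mouse. Dashed and dotted lines are the 95th and 99th percentiles of olfactory receptor probe sets, averaged over arrays; Il1b, Il18 and Tnf lie to the right of the dashed line, and the other 10 genes to its left.

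Il1b, which encodes the inflammatory cytokine IL-1 beta, had 5.87 and 5.67 in acetate-fed mice 1 and 2 and 5.38 in the control mouse. Both acetate-fed values were above the control value. The mean difference was 0.39 ± 0.16 (SE; limma adjusted p = 0.14), so it did not pass the test. At the stricter limit of the 99th percentile (5.45 and 5.40 on the acetate-fed arrays and 5.52 on the control array) Il1b was the 1 gene of the 13 still above background, on the acetate-fed arrays and not on the control array.

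The test was limma, which borrows the spread of the acetate-fed pair across probe sets, on probe sets in the upper 60% by mean without exactly tied pairs, adjusted over all 17923 tested probe sets. Of the 115 interleukin probe sets 58 passed the filter on low values and 40 were tested. In acetate-fed kidneys 2 rose and 0 fell, which is 5% and 0% of the 40, against 6.55% and 4.97% of all tested probe sets. The share called higher was thus close to that of all probe sets. By the fold rule, 0 of the 58 were up by 2-fold or more in both mice, against 0.344% of all probe sets that passed the filter, and 0 were down by as much, against 0.359%. At 1.5-fold, 1 of the 58, of Il16, was higher in both mice, against 1.67%, and 0 were lower, against 1.23%. At an unadjusted limma p under 0.05 there were 7 of the 40 (17.5%), against 21.3% of all tested probe sets. The median difference of the 40 interleukin genes with a probe set past the filter was 0.05 in mouse 1 and 0 in mouse 2, against 0 in each for all 13473 genes.

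Il16 encodes a CD4-binding chemoattractant for T cells, monocytes and eosinophils, which is cut from a precursor protein. Its gene lies on chromosome 7 at 83642819 to 83746028 (GRCm38.p6). Its probe set with the highest mean had 6.05 and 5.91 in acetate-fed mice 1 and 2 and 4.93 in the control mouse, 2.18-fold and 1.98-fold higher. The control value lay close to the background limit of 4.82 and under the 99th percentile of 5.52 on that array. These folds are therefore measured from a value near background. Both acetate-fed values lay well above the control, and their mean of 5.98 ± 0.10 (SD, n = 2) differed from it by 1.06 ± 0.16 (SE; limma adjusted p = 2.9e-05). The other Il16 probe set above background had 5.63 and 5.41 in acetate-fed mice and 5.36 in the control mouse, a difference of 0.16 (limma adjusted p = 0.74). The remaining pair of Il16 probe sets was below background and nearly constant, at 4.81 on all arrays and at 4.00 in both acetate-fed mice against 4.02 in the control mouse. The increase of Il16 therefore rests on 1 of 4 probe sets.

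Il33 encodes an alarmin of the IL-1 family that endothelial, epithelial and stromal cells hold in the nucleus and release on damage. Its gene lies on chromosome 19 at 29925113 to 29960718 (GRCm38.p6). Its single probe set had 7.00 and 6.46 in acetate-fed mice 1 and 2 and 5.94 in the control mouse. Both mice were above the control, 2.07-fold in mouse 1 and 1.43-fold in mouse 2. The difference was 0.79 ± 0.18 (SE; limma adjusted p = 0.0027), with an acetate-fed mean of 6.73 ± 0.38 (SD, n = 2).

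After quantile normalization no probe set of the whole array passed limma (0 of 17917, with 2555 at an unadjusted p under 0.05), so every call given here, those of markers and pathway genes included, was lost under that setting. Both member calls were also lost in the limma fit with tied pairs kept and after median centring, with adjusted p from 0.10 to 0.63 over these 3 settings, and Il33 lost its call when only the upper 40% were tested (limma adjusted p = 0.12), which left out Il16. The fit drew 26.5 degrees of freedom from all probe sets and 1 from the acetate-fed pair, so a call follows the size of the difference more than the likeness of the mice.

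Marker genes of other cell types differed beside these members. In whole tissue, more cells of a type and more RNA per cell cannot be told apart. The counts below stand beside 6.55% called higher and 4.97% called lower among all 17923 tested probe sets. All 8 macrophage markers were higher in both acetate-fed mice and passed limma's test, with summed levels on the linear scale of 8184 and 4406 in acetate-fed mice 1 and 2 and 2155 in the control mouse. Of 4 fibroblast markers 3 rose, with sums of 5813 and 2646 against 1995, and of 4 endothelial markers 3 rose, with sums of 852.1 and 790.0 against 659.0. T cell markers had sums of 302.5 and 269.2 in acetate-fed mice and 257.1 in the control mouse, with 0 of 3 tested genes past limma's test and Cd28 and Cd3g under background. Of the 6 T cell markers 3 were higher in both mice and 0 lower in both. Cd3d had 6.51 and 6.04 in acetate-fed mice and 5.82 in the control mouse (limma adjusted p = 0.096). Both adipocyte markers with a probe set, Adipoq and Adig, fell, with sums of 36.4 and 29.7 in acetate-fed mice and 1137 in the control mouse. Of 5 neutrophil markers S100a8 and S100a9 rose, and Cxcr2, Elane and Mpo were under background. The 3 mast cell markers were under background, and of 3 B cell markers Cd79a and Ms4a1 were. Of 5 urothelial markers, all above background, the keratin genes Krt15 and Krt5 rose and the uroplakin genes did not pass the test: Upk3a differed by -0.27 in mouse 1 and -0.46 in mouse 2, Upk1b by 0.09 and -0.12, and Upk2 was tied on all 3 arrays. The summed urothelial level was 686.4 and 541.2 in acetate-fed mice and 447.2 in the control mouse. Of 5 kidney epithelial markers 2 rose by limma, Aqp2 of the collecting duct (12.24 ± 0.44 in acetate-fed mice, SD, n = 2, and 11.43 in the control mouse) and Slc12a1 of the thick ascending limb (12.44 ± 0.15 and 11.84). The proximal tubule gene Slc34a1 differed by -0.17 and -0.24 without passing. The part of these cells in the values of Il16 and Il33 was not tested.

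The other IL-1 family ligands gave smaller differences. Il1rn, the natural receptor antagonist that blocks IL-1 signalling, had 6.23 and 5.70 in acetate-fed mice 1 and 2 and 5.62 in the control mouse, 1.52-fold and 1.06-fold higher (limma adjusted p = 0.28). Its second probe set above background had 5.74 and 5.46 in acetate-fed mice and 5.44 in the control mouse. On both probe sets mouse 1 stood apart, while mouse 2 was close to the control. Il1f6, IL-36 alpha, reached 4.84 in mouse 1, against 4.24 in mouse 2 and 4.28 in the control mouse, so only the mouse 1 value passed background. Il1f10 had 5.10 in both acetate-fed mice and 5.07 in the control mouse.

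Il34, a second ligand of the macrophage receptor CSF1R that tubular cells make, had 5.46 and 5.07 in acetate-fed mice 1 and 2 and 4.97 in the control mouse (difference 0.30 ± 0.18 SE, limma adjusted p = 0.36). Its value was again higher in mouse 1 than in mouse 2. Il15, a survival factor for natural killer and memory T cells that kidney epithelium makes, was 6.70 on all 3 arrays. Il17b was 5.03 and Il9 4.86 on all 3 arrays. No difference could be measured where the deposited values repeat in this way.

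**Figure D2:**
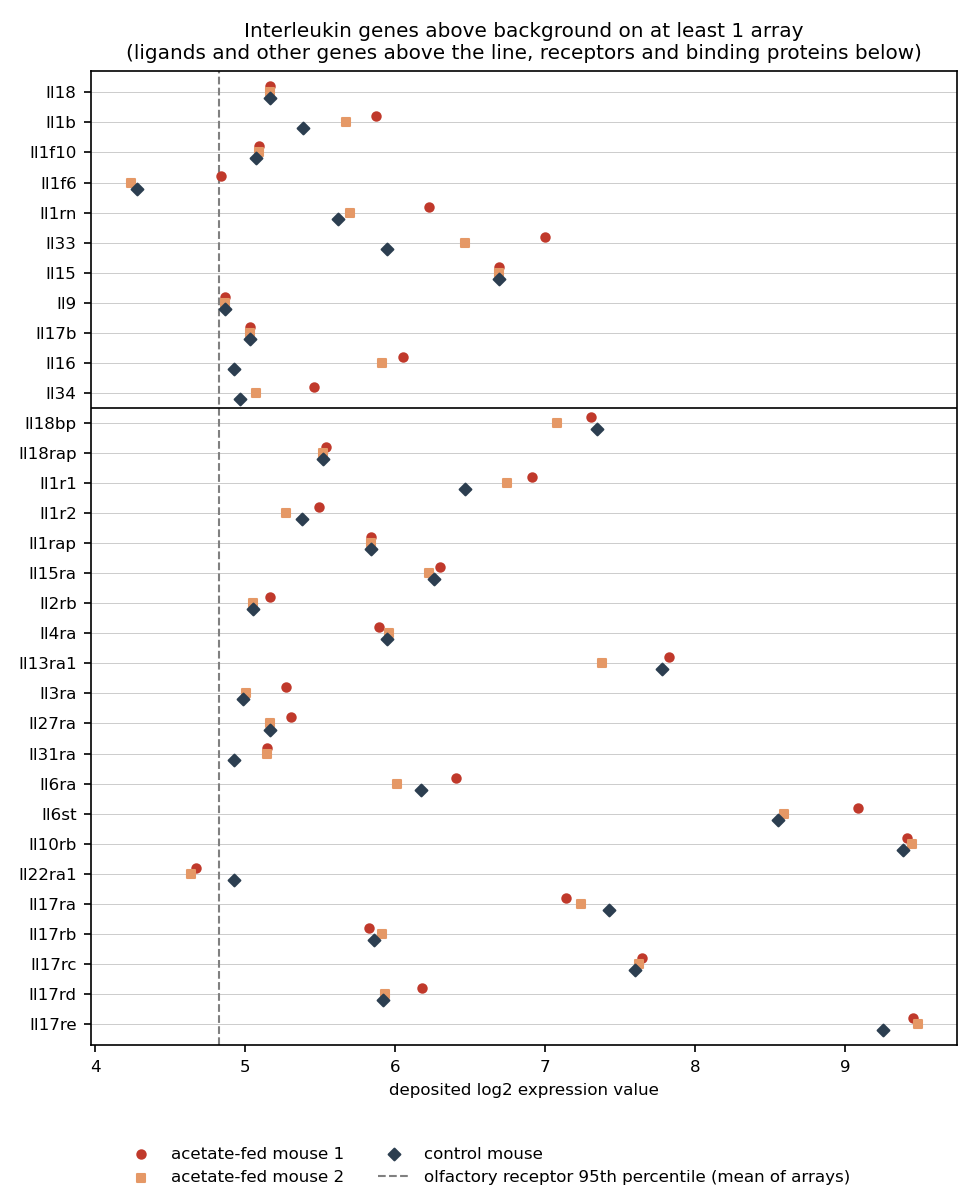
Deposited log2 values (horizontal axis) of the 32 interleukin genes above background on at least 1 array, each by its probe set with the highest mean, with a point for each acetate-fed mouse and the control mouse. The dashed line is the 95th percentile of olfactory receptor probe sets; Il33 and Il16 have both acetate-fed points clearly right of the control point, and most receptors have the 3 points close together.

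Among the receptors no shift passed the test. Of 69 receptor and binding protein probe sets, 37 passed the filter and 31 were tested, and none rose or fell by limma (0 calls). At an unadjusted p under 0.05 there were 4 of the 31 (12.9%), against 21.3% of all tested probe sets: those of Il18r1 and Il1r1 were higher and those of Il13ra1 and Il6st lower. With tied pairs kept in the fit, limma called 3 receptor probe sets, of Il17re, Il2rb and Il31ra, each of them with exactly repeated acetate-fed values. That fit called 5 of the 58 interleukin probe sets higher and 1 lower, or 8.62% and 1.72%, against 5.18% and 5.35% of all probe sets. With no filter on low values, limma called 3 receptor probe sets that lie under background on all 3 arrays, Il18r1 (adjusted p = 0.018) and Il7r (adjusted p = 0.00020) as higher and a second Il17rd probe set (adjusted p = 0.018) as lower. In that fit 4 of 62 interleukin probe sets were higher and 1 lower, or 6.45% and 1.61%, against 6.02% and 4.57% of all probe sets tested. Among the 34 receptor probe sets above background, differences lay between -0.31 and 0.58 in mouse 1 and between -0.44 and 0.28 in mouse 2.

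Il1r1, the signalling receptor for IL-1, had 6.91 and 6.75 in acetate-fed mice 1 and 2 and 6.47 in the control mouse. Both were above the control, by 0.36 ± 0.15 on average (SE; limma adjusted p = 0.15). The decoy receptor gene Il1r2 went up in 1 mouse and down in the other, at 5.49 and 5.27 in acetate-fed mice and 5.38 in the control mouse, and the shared co-receptor gene Il1rap was 5.84 on all 3 arrays. Il18bp, a secreted protein that neutralises IL-18, had 7.31 and 7.08 in acetate-fed mice and 7.35 in the control mouse (limma adjusted p = 0.72). Il18rap, the accessory chain of the IL-18 receptor, had 5.54 and 5.52 in acetate-fed mice and 5.52 in the control mouse. The binding chain gene Il18r1 had 4.69 and 4.24 in acetate-fed mice and 3.94 in the control mouse (limma adjusted p = 0.066), all under background.

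The 5 receptors of the IL-17 family were all above background on all 3 arrays. Il17re, the IL-17C receptor chain of epithelial cells, had 9.45 and 9.48 in acetate-fed mice 1 and 2 and 9.25 in the control mouse, 1.15-fold and 1.17-fold higher (limma adjusted p = 0.36). Its other probe sets had 8.45 and 8.49 in acetate-fed mice against 8.26 in the control mouse, and 5.23 in both against 5.19. All 3 probe sets were thus slightly higher in both mice. Il17ra, the common chain that IL-17A needs, had 7.14 and 7.24 in acetate-fed mice and 7.43 in the control mouse on one probe set (limma adjusted p = 0.40), and 5.95 on all 3 arrays on the other. Il17rc, its partner chain for IL-17A and IL-17F, had 7.65 and 7.63 in acetate-fed mice and 7.60 in the control mouse. Il17rb, the IL-25 receptor chain, had 5.82 and 5.91 against 5.86. Il17rd, an inhibitory family member, had 6.18 and 5.93 in acetate-fed mice and 5.92 in the control mouse. Its second probe set, under background, ran the other way, at 3.38 and 3.67 in acetate-fed mice and 4.00 in the control mouse, so its probe sets give no common direction. The IL-17 receptor genes were therefore detected. Of the family's ligand genes Il17b was above background, at 5.03 on all 3 arrays, while the probe sets for Il17a, Il17d and Il25 were not. Il17c and Il17f were not among the members.

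Il6st encodes gp130, the signalling chain shared by IL-6, IL-11 and oncostatin M, and its 4 probe sets did not move together. The probe set with the highest mean had 9.09 and 8.60 in acetate-fed mice 1 and 2 and 8.56 in the control mouse, and another had 6.54 and 6.02 against 5.95. Mouse 1 was higher on both, and mouse 2 close to the control. The third had 7.61 and 7.55 in acetate-fed mice and 7.87 in the control mouse, lower in both, and the fourth had 6.08 and 6.04 against 6.08. Differences of the mean ran from -0.29 to 0.33 with none past limma's test, so no direction can be given for this gene. Il6ra, the IL-6 binding chain, had 6.41 and 6.02 in acetate-fed mice and 6.18 in the control mouse. Il31ra, the IL-31 receptor, had 5.14 in both acetate-fed mice and 4.93 in the control mouse, and Il27ra, the IL-27 receptor, had 5.31 and 5.17 against 5.17.

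Il13ra1, a chain of the IL-4 and IL-13 receptor, had 4 probe sets above background. The one with the highest mean had 7.83 and 7.38 in acetate-fed mice 1 and 2 and 7.78 in the control mouse, a difference of -0.18. The one with the largest mean decrease had 7.29 and 7.26 in acetate-fed mice and 7.60 in the control mouse. Its difference was -0.32 ± 0.14 (SE; limma adjusted p = 0.17). On all 4 mouse 2 was below the control, while mouse 1 was below it on 2 and above it on the other 2. Il4ra, its partner chain, ranged from -0.02 to 0.20 in mean difference over 3 probe sets. Il10rb, shared by receptors of the IL-10 family, had 9.41 and 9.44 in acetate-fed mice and 9.38 in the control mouse. Il22ra1, the epithelial IL-22 receptor chain, had 4.67 and 4.64 in acetate-fed mice and 4.93 in the control mouse, so that only the control value was above background (limma adjusted p = 0.40).

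The remaining receptor chains named here differed little or were under background. Il2rb, shared by the IL-2 and IL-15 receptors, had 5.17 and 5.05 in acetate-fed mice 1 and 2 and 5.05 in the control mouse, and Il15ra 6.30 and 6.23 against 6.26. Il3ra had 5.27 and 5.01 in acetate-fed mice and 4.99 in the control mouse. Il7r, the IL-7 receptor of T cells and innate lymphoid cells, had 4.20 and 3.78 in acetate-fed mice and 3.31 in the control mouse on one probe set and 3.32 on all arrays on the other. Its values differed but stayed under background, and it did not pass the filter on low values. Il2ra, Il10ra, Il12rb1, Il12rb2, Il21r and Il9r were under background on every array.

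Across the 47 probe sets above background, 20 were higher than the control in both mice (42.6%, against 28.1% of all probe sets above background), 7 were lower in both (14.9%, against 29.4%), 7 were tied on all 3 arrays and 13 were mixed or tied in part. Of the 20, the difference was larger in mouse 1 for 14, larger in mouse 2 for 3 and equal for 3. Of 9 genes with several probe sets above background, Il16, Il17re and Il1rn were higher in both mice on every one of these probe sets, and Il6st held both directions.

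**Figure D3:**
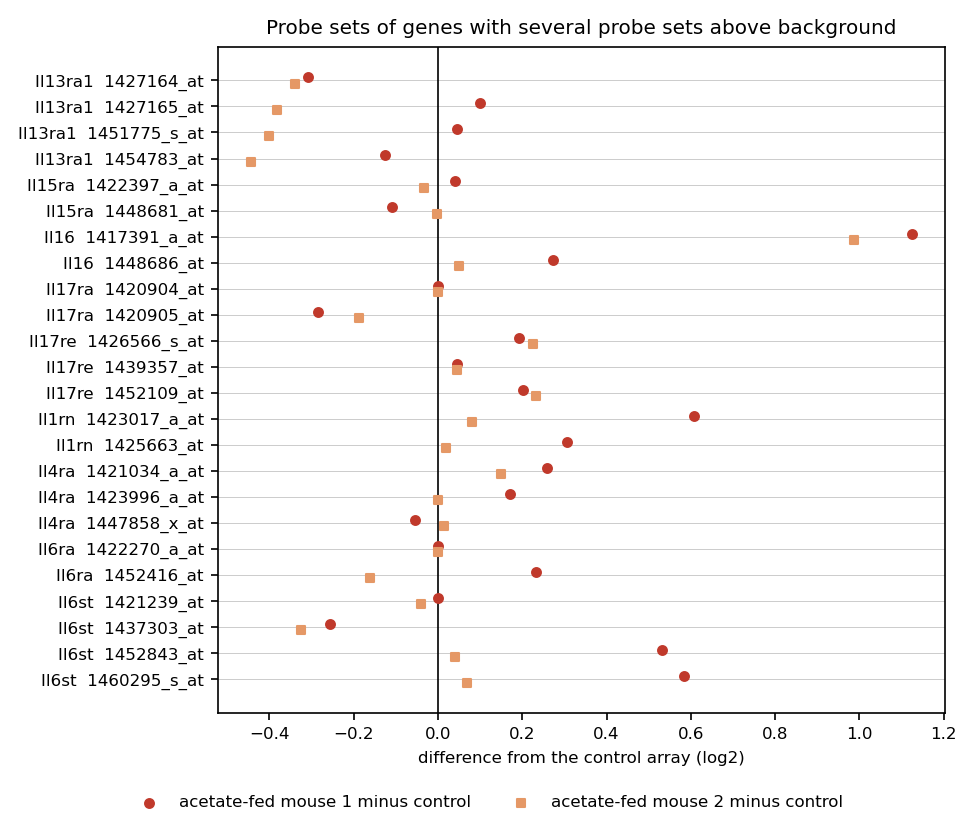
Difference from the control array (log2, horizontal axis) in each acetate-fed mouse for the 24 probe sets of the 9 genes with several probe sets above background. The Il16 probe set with the highest mean, at 1.12 and 0.99, stands apart from the other Il16 probe set, and the probe sets of Il6st fall on both sides of 0.

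Genes that act downstream of these receptors were read from lists of signalling and response genes. Among all 17923 tested probe sets limma called 6.55% higher and 4.97% lower, the shares to set beside each list. Of 17 JAK, STAT, IRAK and adaptor genes with a probe set, 10 were tested, 0 rose and 1, Irak2, a kinase of the IL-1 receptor pathway, fell by 0.55 on average (limma adjusted p = 0.011). Stat3, the factor activated by IL-6 and IL-22, had 9.20 and 9.12 in acetate-fed mice and 8.91 in the control mouse (limma adjusted p = 0.28). Of 8 T helper 1 and 17 regulators with a probe set 4 were tested and none rose or fell; Tbx21, the T helper 1 master factor, was under background at 2.73 in both acetate-fed mice and 2.45 in the control mouse.

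Genes listed as feedback inhibitors moved in both directions: of 9 tested, 2 rose and 2 fell by limma, against 6.55% and 4.97% of all tested probe sets. Socs3, induced by IL-6 type cytokines, had 7.72 and 6.43 in acetate-fed mice 1 and 2 and 5.70 in the control mouse (limma adjusted p = 0.00046). Nfkbiz, induced by IL-1 and IL-17, had 7.31 and 7.11 against 6.13 (limma adjusted p = 1.0e-05). Its product can also activate target genes of these cytokines, so of the listed genes that rose only Socs3 is plainly an inhibitor. Socs2 had 8.08 and 8.21 in acetate-fed mice and 9.77 in the control mouse (limma adjusted p = 6.4e-10), and Cish 8.52 and 9.23 against 9.84 (limma adjusted p = 0.00025). Both are STAT5 targets that growth hormone and prolactin also induce.

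Of 12 epithelial target genes of IL-17 and IL-1, 9 were tested, and 5 rose by limma: Lcn2, S100a8, S100a9, Cebpb and Ccl20. Of all tested probe sets 6.55% were called higher. Cebpb, a transcription factor of the acute-phase response, had 9.72 and 9.85 in acetate-fed mice and 8.83 in the control mouse. Ccl20, the ligand of CCR6 on T helper 17 cells, had 5.05 and 4.70 in acetate-fed mice and 4.29 in the control mouse, with the mouse 1 value alone above background. The neutrophil chemokine gene Cxcl1 had 7.41 and 7.23 against 7.17 (limma adjusted p = 0.70), and Csf3 was 4.81 on all arrays. These genes have other inducers as well, and S100a8 and S100a9 are also made by neutrophils.

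Of 11 acute-phase and IL-6 type response genes with a probe set, 9 were tested, 1 rose and 3 fell by limma. The shares of all tested probe sets were 6.55% and 4.97%. Osmr, the oncostatin M receptor that pairs with gp130, had 7.83 and 6.79 in acetate-fed mice 1 and 2 and 5.59 in the control mouse (limma adjusted p = 3.9e-06). Hp, haptoglobin, which adipocytes also make, had 5.57 and 5.11 in acetate-fed mice and 7.73 in the control mouse, and the fibrinogen chain genes Fga and Fgb were the others that fell. The adipocyte markers fell beside Hp, and their part in its value was not tested. Of 5 genes for IL-1 maturation with a probe set, 4 were tested and 1 rose: Casp4, a caspase of the non-canonical inflammasome, at 6.87 and 6.11 in acetate-fed mice and 5.49 in the control mouse (limma adjusted p = 0.00082). Casp1, which cleaves the precursors of IL-1 beta and IL-18, and Nlrp3 were under background on all 3 arrays. For the 12 epithelial targets the median over genes stood 0.91 above the control in mouse 1 and 0.16 in mouse 2; it was 0 in each for the 17 signal transducers and 0 in each for the 11 acute-phase genes. Over these 5 lists limma called 9 genes higher and 6 lower, against 1 and 1 (Jak3 and Sigirr) with tied pairs kept, 0 and 1 (Socs2) after median centring and 3 and 2 in the upper 40% of probe sets. These lists were chosen with earlier results of these arrays known.

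**Figure D4:**
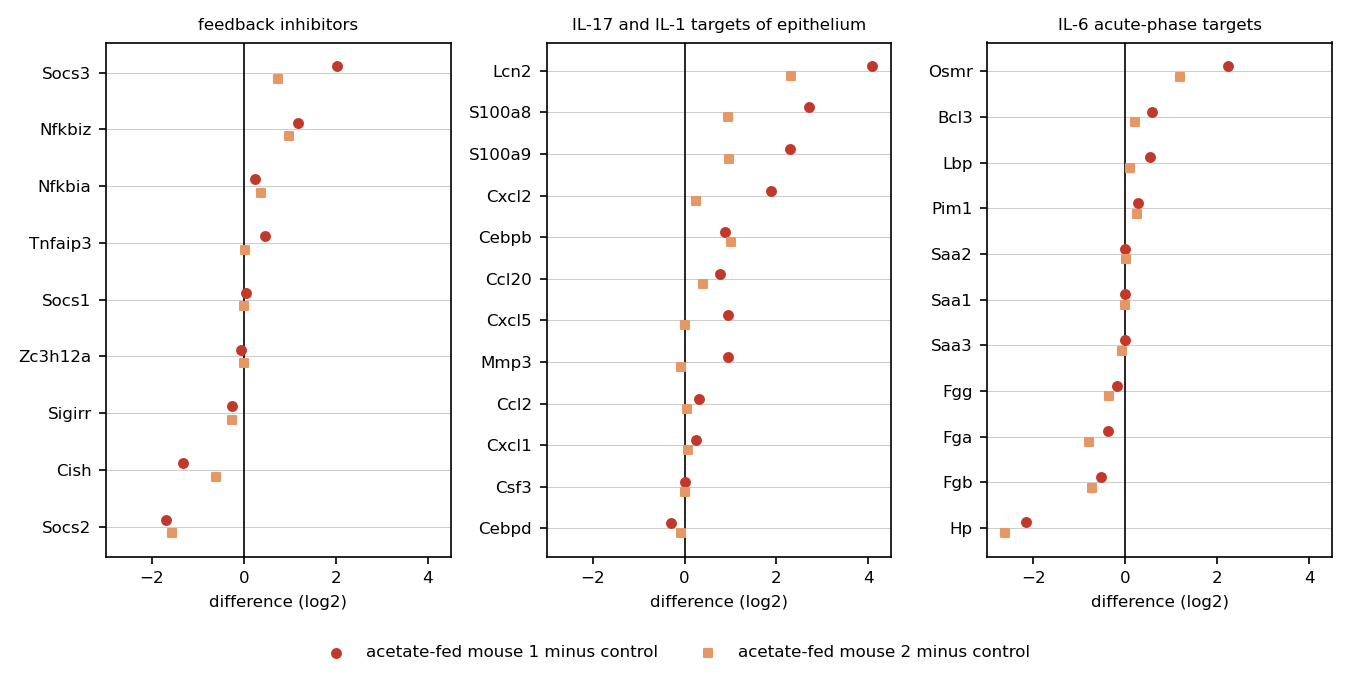
Difference from the control array (log2, horizontal axis) in each acetate-fed mouse, sorted by the mean of the mice. Shown are 9 genes listed as feedback inhibitors, 12 epithelial target genes of IL-17 and IL-1 and 11 IL-6 acute-phase genes. Lcn2, S100a8 and Osmr lie furthest right, with mouse 1 above mouse 2, and Socs2 and Hp lie furthest left in both mice.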

How the data were processed

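Biotin-labelled total RNA of kidney tissue was hybridised, 1 array per mouse. The deposited table holds log2 expression values, judged from their range; the submitters' processing notes name MAS5, with summary method and version not given in the sources used here. As deposited, the arrays have lower quartiles of 3.38 to 3.40 and upper quartiles of 7.19. No value column was left unused (0 columns). Names come from the platform annotation; all 73 member genes matched RefSeq by Entrez identifier with the same symbol.

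The test was limma 3.58.1 in R 4.3.3 (lmFit, eBayes with an intensity trend), acetate against control, Benjamini-Hochberg at 0.05, on the upper 60% by mean (27022, from 4.21 up) with unequal acetate-fed values (17923). It was tested on simulated data. There the control had the pair's spread, with no tied values and nothing particular to the control, so those features were not tested. With 1 residual degree of freedom the single control is taken to vary as the pair does, and 3 arrays limit the precision; nothing says whether mice shared a litter. A gene is shown by its probe set with the highest mean. Genes named are those past the test with a difference of at least 0.5, the T helper cytokines, and up to 3 per role with the largest difference shared by both mice; others are named as members of small groups after their values were seen. Members, lists and the exclusion of tied pairs were chosen with earlier results of these data known. The kappaB motif was shortened by a base after a first search. Tables and plots were made in Python 3.11.15 with pandas 2.3.3 and matplotlib 3.10.9. Alternatives changed the ties, normalization, filter, trend, fold, background limit and mice.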

Additional observations from a re-analysis of the deposited data

How the results depend on the processing

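The count of interleukin probe sets called by limma was 2, and 2 without an intensity trend. It was 6 with tied probe sets kept (Il12b, Il17re, Il1f10, Il1f5, Il2rb and Il31ra, none of them Il16 or Il33), 5 with no filter (Il16, Il33, Il18r1 and Il7r higher, Il17rd lower), and 0 after quantile normalization, 0 after median centring and 0 in the upper 40% of probe sets (2, 4 and 4 at an unadjusted p under 0.05). Over all probe sets the calls were 1174 higher and 890 lower, 0 after quantile normalization (2555 at an unadjusted p under 0.05), 11 and 29 after median centring, and 161 and 218 in the upper 40%. These fits tested 17923, 17917, 17923 and 13531 probe sets. The degrees of freedom drawn from all probe sets were 26.5, 2.45, 3.53 and 5.69 in the same order. The cause of the lower counts was not tested. After quantile normalization Il16 differed by 1.02 and Il33 by 0.77 without a call; the mean over all Il16 probe sets past the filter was 0.41.

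At the 99th percentile 1 T helper cytokine gene was above background, against 3. At the 95th percentile of the bacterial control probe sets, RNAs added to the sample at high level, 0 probe sets and 0 T helper cytokine genes were, which says nothing about background. The median difference of 0.03 turned to -0.0027 after quantile normalization, so its sign was not kept across settings. The count at least 2-fold from the control was 0, and 1 at least 1.5-fold. Without 1 mouse it was 0 (mouse 1 left out) to 2 (mouse 2 left out), Il16 and Il33. Leaving out a mouse leaves the other mouse's difference, and for 7 of 23 named genes the mice's differences lay over 2 times apart: Il33 (0.52 without mouse 1, 1.05 without mouse 2), Il1rn (0.08, 0.61), Il6st (0.04, 0.53), Il34 (0.10, 0.49), Il3ra (0.02, 0.28), Il18bp (-0.27, -0.04) and Il10rb (0.06, 0.03). Quantile normalization moved 7 of 23 beyond the pair's spread, among them the tied pairs of Il12a, Il12b, Il18 and Il31ra, whose spread is 0. Another 14 stayed within it, as did Il16 and Il33, which lost their calls.

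No paired analysis was possible, because there was 1 control mouse and no pairing of mice is given in the sources used here.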
